A study of Mus musculus with 45 samples.

Results

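The 10 genes described here encode proteins that bind, take up, carry, oxidize or store metal ions. They are the metallothionein genes Mt1, Mt2 and Mt3, the ferritin genes Fth1 and Ftl1, and the iron uptake and carrier genes Tfrc and Trf. The others are the iron oxidase and export genes Cp and Slc40a1 and the zinc transporter gene Slc30a3. The 10 genes were chosen by name for their function, with earlier results of these data known. All 10 are among the 15897 genes of the table. RNA was sequenced from the hippocampus of 45 female C57Bl/6J mice, each a separate animal, in 8 groups of genotype and diet. AwTw mice were wild-type littermates. A+Tw mice carried chimeric mouse/human APPswe together with human PS1dE9 in a single transgene, under the mouse PrP promoter. AwT+ mice carried human Tau P301L under the CaMKII promoter. A+T+ mice came from a cross of heterozygotes of both lines and carried both transgenes. Each genotype was fed either the standard diet (STD), with a fat content of 5% by weight and a cholesterol content of 0%, or the typical Western diet (TWD), with 21% fat and 0.15% cholesterol, from 7 months of age until sacrifice at 13 months. On STD there were 6 AwTw, 6 AwT+, 5 A+Tw and 4 A+T+ mice, on TWD there were 6 mice of each genotype, and the labels place 20 mice in batch 0 and 25 in batch 1.

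Metallothioneins are small cysteine-rich proteins that bind zinc and copper and buffer their free levels. Mt1 and Mt2 are made in most tissues, in brain mainly by astrocytes, and are switched on by metals, through metal response elements bound by the factor MTF1, and also by glucocorticoids and inflammation through other elements, whereas Mt3 is typical of the nervous system. Iron enters cells as transferrin taken up by the transferrin receptor, is stored in ferritin shells of heavy and light chains, and leaves through ferroportin with the help of a copper oxidase. When iron is scarce, iron regulatory proteins stabilize the transferrin receptor mRNA and block translation of the ferritin mRNAs, so ferritin is regulated largely at a step that mRNA levels do not show. The vesicular zinc transporter loads zinc into synaptic vesicles of glutamate neurons, above all the hippocampal mossy fibers.

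Values below are the deposited expression values, a log2-like scale on which a difference of 1 is about a doubling at the levels of these genes, and they carry no read depth, so all errors come from the spread between mice. Tests used limma, p-values were adjusted over the 15897 genes by the Benjamini-Hochberg method, and a gene is called changed when its adjusted p is under 0.05. A difference is given ± its SE. As a check of the A labels, App was 0.90 ± 0.05 higher in A+ than in Aw mice (limma, adjusted p 3.89e-18). Mapt differed by 0.06 ± 0.05 between T+ and Tw mice (limma, adjusted p 1.00), and since the authors quantified human MAPT apart from this table the T labels have no such check here. The summed level of choroid plexus markers varied from 0.033 to 3.84 times its median over the 45 mice, and 1 mouse, AwTw/TWD mouse 3, was above 3 times the median. Marker levels of neurons were high in all mice, with none of the 12 neuronal markers under 11.57. In bulk tissue, fewer cells of a type and less RNA per cell cannot be told apart.

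Compared per kilobase of the longest coding transcript, Fth1 stood highest of the 10 genes with a mean of 14.97 on the log2 scale, and its lowest mouse (14.40) was just above the highest mouse for Mt3 (14.39). Below Fth1 came Mt3 with 13.34, Ftl1 with 12.45, Mt1 with 11.85, Mt2 with 11.60 and Trf with 11.12, and the ranges over mice of neighbours among these overlapped. Slc30a3 followed with 9.42 and overlapped neither Trf above nor Tfrc below. Tfrc (6.16), Cp (5.61) and Slc40a1 (4.82) were lowest, again with overlapping ranges. Fth1 mRNA was thus more abundant than that of nearly every gene in the table, with 99.97% of genes below its unscaled mean, whereas 22.9% were below Slc40a1. The spread over all mice was smallest for Fth1 and Slc30a3, both with an SD of 0.31, and largest for Tfrc, with 0.77.

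**Figure D1:**
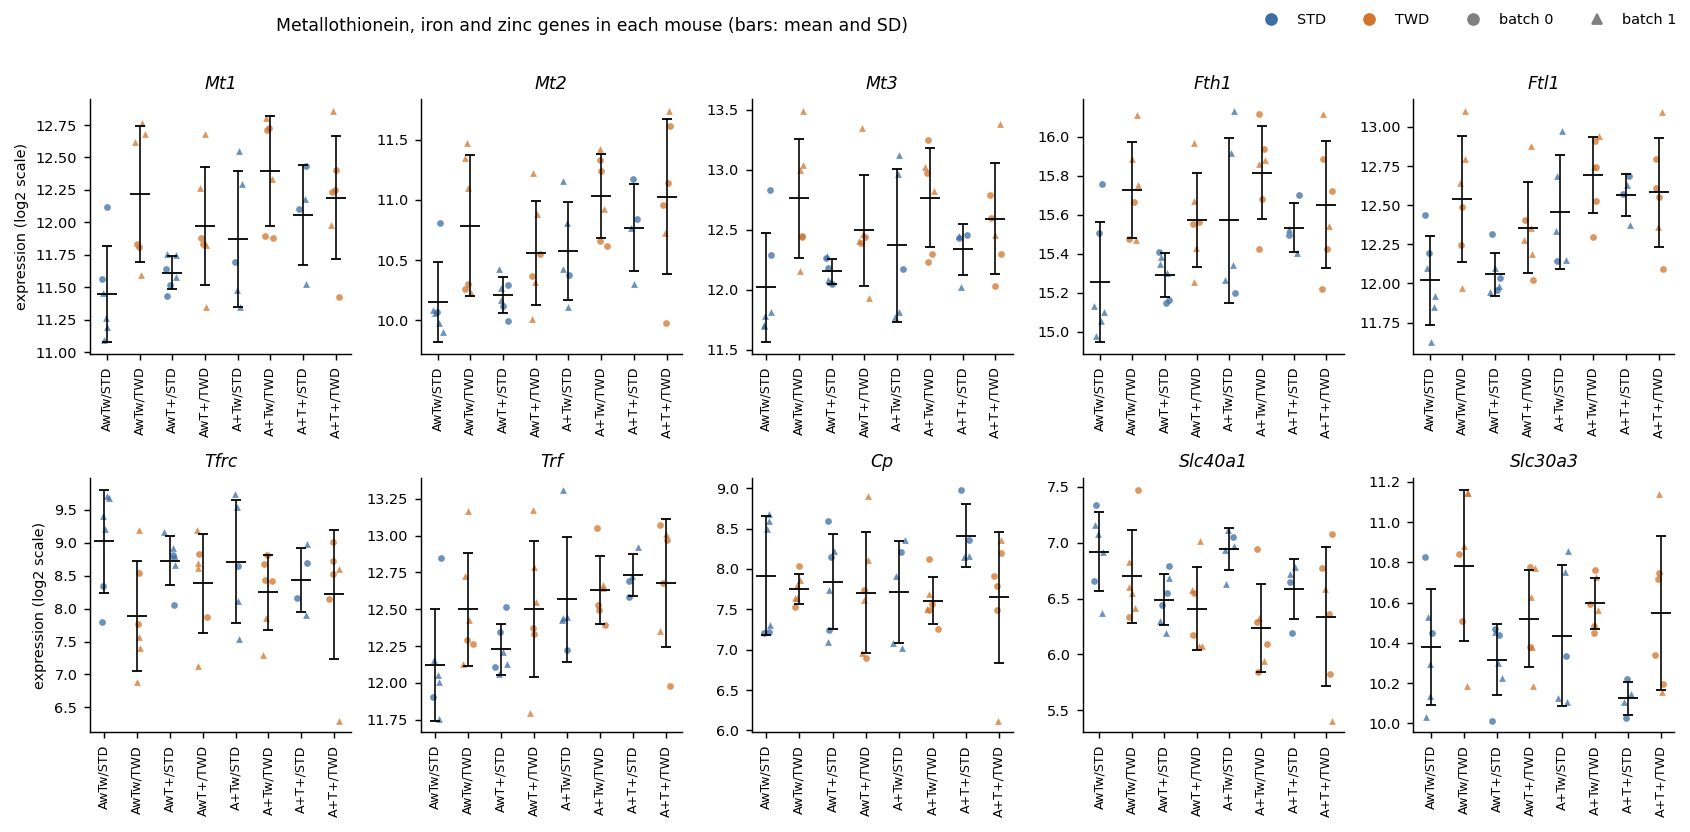
Expression of the 10 genes in each of 45 mice (log2 scale, vertical axis; each panel has its own range) by genotype and diet group, with STD in blue and TWD in orange, batch 0 as circles and batch 1 as triangles, and black bars for the group mean and SD. Within each genotype the STD and TWD mice overlap for every gene, and in AwTw/TWD the Mt1, Mt2 and Mt3 values of 3 batch 1 mice lie above those of the other 3 mice.

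The diets were compared over all genotypes, with 24 mice on TWD and 21 on STD. The diet went with higher expression of Mt1, Mt2, Mt3, Fth1, Ftl1 and Slc30a3 and with lower expression of Tfrc and Slc40a1. Thus 8 of the 10 genes were called, against 29.4% of all genes, and their differences ran from 0.57 lower to 0.47 higher. Trf (0.19 ± 0.10, adjusted p 0.155) and Cp (-0.27 ± 0.17, adjusted p 0.215, both limma) did not pass. The batches differed in these counts. With batch 0 alone no gene of the 10 was called (limma, 1 at an unadjusted p under 0.05, and 0% of all genes called), and with batch 1 alone 8 were called (40.9% of all genes). The 8 calls also fell to 3 when a smooth trend with transcript length and with GC content was taken out of each mouse, with Mt1, Mt3 and Fth1 left, and to 0 with a component shared by the deviations of the mice as a covariate (limma, 0 at an unadjusted p under 0.05). Both settings are described below, and they bear on every diet call that follows.

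The A+ transgene was examined next, in 21 A+ and 24 Aw mice. Ftl1 and Mt2 were higher in A+ mice, so that 2 of the 10 genes were called against 3.77% of all genes. Mt1, Fth1, Mt3 and Trf had positive differences that did not pass, from 0.17 to 0.33. The T+ transgene (22 T+ and 23 Tw mice) gave 0 of 10 calls with limma against 0.0189% of all genes, with 2 of 10 at an unadjusted p under 0.05, Slc40a1 and Slc30a3.

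**Figure D2:**
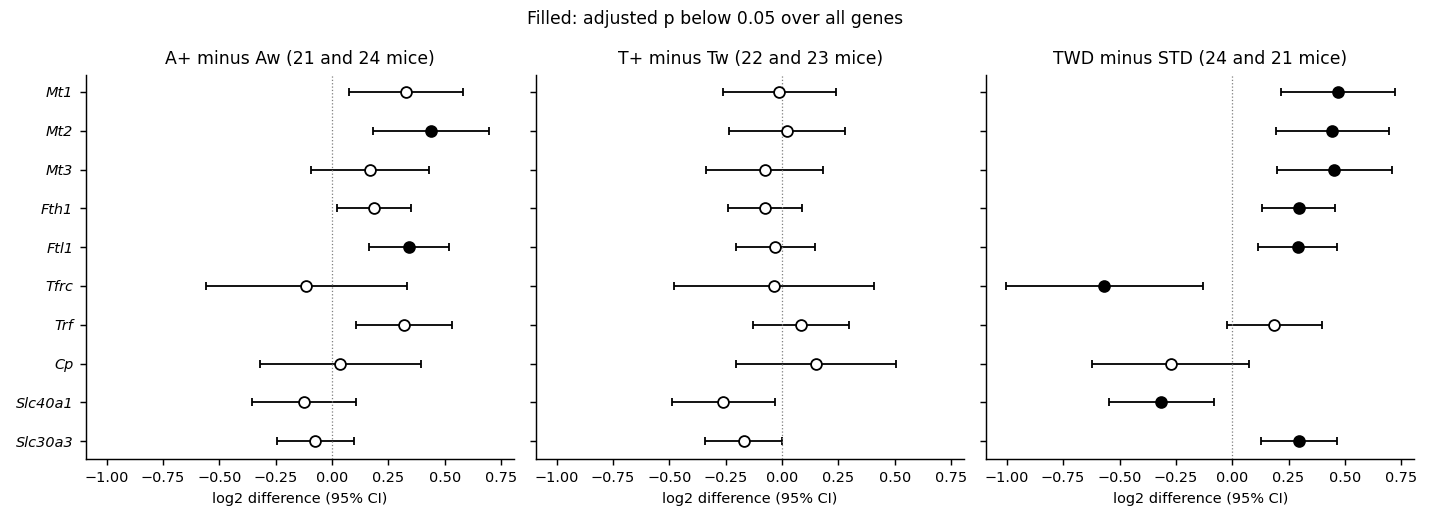
Difference of each gene on the log2 scale (horizontal axis) with its 95% confidence interval for A+ minus Aw, T+ minus Tw and TWD minus STD, from fits to all 45 mice. Filled points passed an adjusted p of 0.05 over all genes: Mt2 and Ftl1 for A+, none for T+, and 8 genes for TWD, of which Tfrc and Slc40a1 lie left of 0.

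The 3 metallothionein genes are neighbours on mouse chromosome 8 and are transcribed from the same strand, with Mt3 at chr8:94152607-94154146, Mt2 at chr8:94172664-94173568 and Mt1 at chr8:94179082-94180327 (GRCm38, GENCODE M21). Their proximal promoters are shown as a description, the 250 bases before the RefSeq start site (GRCm38.p6). They lie at chr8:94178839-94179088 for Mt1, chr8:94172368-94172617 for Mt2 and chr8:94152357-94152606 for Mt3, each 5′ to 3′ on the plus strand. Capitals mark the metal response element core, TGCACNC or TGCGCNC on either strand, so that a match on the opposite strand reads GNGTGCA or GNGCGCA.
Mt1: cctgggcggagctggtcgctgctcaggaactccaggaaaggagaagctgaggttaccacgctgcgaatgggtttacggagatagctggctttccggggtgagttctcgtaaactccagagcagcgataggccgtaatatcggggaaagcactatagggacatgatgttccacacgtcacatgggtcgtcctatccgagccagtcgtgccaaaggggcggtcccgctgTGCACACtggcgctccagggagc
Mt2: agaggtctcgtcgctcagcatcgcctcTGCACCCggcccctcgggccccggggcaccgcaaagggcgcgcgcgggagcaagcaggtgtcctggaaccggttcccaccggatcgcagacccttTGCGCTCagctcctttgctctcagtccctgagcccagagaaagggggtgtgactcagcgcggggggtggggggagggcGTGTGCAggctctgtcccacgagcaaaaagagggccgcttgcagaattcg
Mt3: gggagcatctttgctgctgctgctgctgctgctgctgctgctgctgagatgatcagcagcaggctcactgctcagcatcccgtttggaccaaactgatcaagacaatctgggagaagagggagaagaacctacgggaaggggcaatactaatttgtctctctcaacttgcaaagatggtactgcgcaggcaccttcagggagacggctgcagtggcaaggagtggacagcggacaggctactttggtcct
In windows reaching from 250 bases before to 50 bases after the start, Mt2 held 4 matches, at 223, 128 and 50 bases before the start and 1 after it. Mt1 held 3, 1 of them 23 bases before the start and the other 2 just after it. Mt3 had 1 match, after the start. Of 32851 such windows of all genes, 25.7% held at least 1 match, 1.97% at least 3 and 0.517% at least 4. Of the other genes with a window (8 of the 10 had one, and Trf and Slc40a1 had none), Tfrc held 2 matches that overlap each other on opposite strands in 1 of its 2 windows, Slc30a3 held 1 in 1 of its 2, and Fth1, Ftl1 and Cp held none. These letters are a description of the sequence and do not show that a factor binds there. Their relation to the diet differences, which Fth1 and Ftl1 showed as well, was not tested. All positions are relative to the RefSeq start, which for Mt1 and Mt2 is not the GENCODE gene start given above. Which start is used in these mice was not tested.

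Mt1 values ran from 11.10 over a median of 11.58 to 12.55 in the STD mice and from 11.35 over 12.24 to 12.86 in the TWD mice. The difference was 0.47 ± 0.12 (limma, adjusted p 0.0157), or 1.39-fold, and the ranges overlapped over most of their length. For Mt2, the STD mice had a lowest value of 9.90, a median of 10.29 and a highest of 11.17, and the TWD mice 9.98, 10.90 and 11.74. Mt2 was 0.44 ± 0.12 higher on TWD (limma, adjusted p 0.0159). Mt3, the member typical of brain, ran from 11.69 to 13.12 on STD (median 12.17) and from 11.93 to 13.49 on TWD (median 12.46), a difference of 0.45 ± 0.13 (limma, adjusted p 0.0159).

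Within AwTw/TWD the metallothioneins were not even over the mice. In AwTw/TWD, Mt2 was 11.10, 11.34 and 11.48 in mice 1, 2 and 3 and 10.30, 10.23 and 10.26 in mice 4, 5 and 6. The first 3 mice lay above all 6 AwTw/STD mice, which ran from 9.90 to 10.81, and the other 3 lay inside that range. Mt1 and Mt3 separated the same 3 mice from the others, with values of 12.62, 12.68 and 12.77 against 11.81, 11.59 and 11.83 for Mt1, and of 13.00, 13.04 and 13.49 against 12.45, 12.16 and 12.44 for Mt3. Mice 1, 2 and 3 were all in batch 1, as was mouse 5, whereas mice 4 and 6 were in batch 0. Within batch 0 the TWD mice were higher than the STD mice by 0.14 ± 0.16 for Mt1, 0.14 ± 0.18 for Mt2 and 0.13 ± 0.14 for Mt3 (adjusted p 0.837 to 0.872, limma). Within batch 1 the differences, in the same order, were 0.72 ± 0.18, 0.67 ± 0.17 and 0.73 ± 0.19 (adjusted p 0.0176 for each, limma).

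In A+ mice Mt2 ranged from 9.98 to 11.74 with a median of 10.84, and in Aw mice from 9.90 to 11.48 with a median of 10.28. The 4 A+T+/STD mice had Mt2 values of 10.76, 11.17, 10.84 and 10.30 and the 5 A+Tw/STD mice 10.11, 11.15, 10.43, 10.37 and 10.81, beside 9.90 to 10.81 in AwTw/STD and 10.00 to 10.43 in AwT+/STD. The A+ values were thus shifted upward with a broad overlap, by 0.44 ± 0.13 (limma, adjusted p 0.0378). Mt2 was 0.49 ± 0.19 higher within batch 0 and 0.41 ± 0.17 higher within batch 1, although neither batch alone passed (adjusted p 0.438 and 0.287, limma). The call was close to the threshold, since it was lost when any one of 23 of the 45 mice was left out, with an adjusted p of up to 0.085 (without A+T+/STD mouse 2). Mt1 differed by 0.33 ± 0.13 (adjusted p 0.167) and Mt3 by 0.17 ± 0.13 (adjusted p 0.527, both limma). Between T+ and Tw mice the metallothioneins differed by -0.08 to 0.02, and the 95% intervals reached from -0.34 to 0.28.

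Fth1 (chr19:9980598-9985098), the heavy chain of ferritin with the iron-oxidizing site, was the most abundant of the 10 mRNAs. Its STD values ran from 14.98 to 16.13 with a median of 15.35, and its TWD values from 15.22 to 16.12 with a median of 15.68. The difference of 0.29 ± 0.08 passed (limma, adjusted p 0.0159), while the highest STD mouse was level with the highest TWD mouse. Ftl1 (chr7:45457944-45459884, minus strand), the light chain that supports mineral formation inside the shell, had a lowest value of 11.63, a median of 12.15 and a highest of 12.98 on STD and of 11.97, 12.54 and 13.10 on TWD. It was 0.29 ± 0.09 higher on TWD (limma, adjusted p 0.0191). Within batch 0 the diet differences were 0.17 ± 0.12 for Fth1 and 0.09 ± 0.11 for Ftl1, and within batch 1 they were 0.42 ± 0.11 and 0.47 ± 0.13.

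Ftl1 differed most clearly between genotypes. A+ mice ran from 12.09 over a median of 12.61 to 13.10, and Aw mice from 11.63 over 12.19 to 13.10. On STD the 4 A+T+ mice had 12.63, 12.69, 12.57 and 12.37, and all but mouse 4 were above the highest AwTw/STD mouse (12.44). The 5 A+Tw mice had 12.33, 12.98, 12.15, 12.15 and 12.69, of which 2 were above the same AwTw/STD mouse. The difference between A+ and Aw was 0.34 ± 0.09 (limma, adjusted p 0.0142), or 1.27-fold, and it was called whichever mouse was left out. Within batch 0 it was 0.23 ± 0.11 and within batch 1 0.42 ± 0.13 (adjusted p 0.617 and 0.144, limma). Fth1 differed by 0.19 ± 0.08 (limma, adjusted p 0.259). A processed copy of Ftl1, Ftl1-ps1, is also in the table, so some reads of Ftl1 may have been assigned to it or from it.

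Microglial markers moved with the A+ transgene as well. Of 14 markers 12 were called higher in A+ mice, with a median difference of 0.97, and their summed level ran from 1.09 to 2.07 times the median of all mice in A+ and from 0.583 to 1.097 times in Aw mice. All 14 were measured in every mouse, the lowest value being 6.30 for Aif1. Over the 45 mice, after group and batch were removed, the microglial score and Ftl1 had a Pearson r of 0.60 (permutation, adjusted p 0.000337) and a Spearman rho of 0.56 (permutation, adjusted p 0.0013). The r was 0.53 without the 2 mice with the most extreme Ftl1 deviations, 0.41 in batch 0 and 0.72 in batch 1. After the removal of a length and GC trend described below, r was 0.28 (permutation, adjusted p 0.15). Fth1 and Tfrc, which were not called for A+, had an r of 0.64 and -0.65 with the microglial score (rho 0.65 and -0.65). In the same order r was 0.53 and -0.64 without the 2 most extreme mice, 0.41 and -0.54 in batch 0, and 0.82 and -0.73 in batch 1. With the trend removed it was 0.42 and -0.48 (permutation, adjusted p 0.0209 and 0.00565). Other scores passed with Ftl1 too: blood (r 0.47), dentate granule and CA3 neuron (r -0.43), oligodendrocyte (r 0.38) and endothelial (r 0.37). With the trend removed, Ftl1 passed with the endothelial (r 0.51), meninges and fibroblast (r 0.46) and choroid plexus scores (r 0.38). On TWD 7 of the 14 markers were called higher and 1 lower, with a median difference of 0.22. What part microglia have in the Ftl1 and Mt2 differences was not tested.

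Tfrc (chr16:32608920-32632794), the receptor that takes up transferrin, was the most variable of the 10 genes. In the STD mice it ran from 7.54 to 9.74 with a median of 8.77, and in the TWD mice from 6.30 to 9.20 with a median of 8.48. It was 0.57 ± 0.22 lower on TWD (limma, adjusted p 0.0451), and the call was lost without any one of 21 of the 45 mice, with an adjusted p of up to 0.0851 (limma). In batch 1 the 12 TWD mice had a mean of 7.89 ± 0.95 (SD) and the 13 STD mice of 8.97 ± 0.72, a fitted difference of -1.14 ± 0.32 (limma, adjusted p 0.0176). In batch 0 the 12 TWD and 8 STD mice had means of 8.48 ± 0.39 and 8.41 ± 0.38, a fitted difference of 0.01 ± 0.16. The lowest value of all mice, 6.30, belonged to A+T+/TWD mouse 1, whose group neighbours lay between 8.15 and 9.02. Tfrc did not pass for A+ (-0.11 ± 0.22, adjusted p 0.818) or T+ (-0.04 ± 0.22, adjusted p 1.00, both limma).

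Trf (chr9:103204001-103230444, minus strand), the iron carrier that oligodendrocytes and choroid plexus make in the brain, ranged from 11.98 to 13.31 in A+ mice (median 12.64) and from 11.76 to 13.17 in Aw mice (median 12.28). The difference of 0.32 ± 0.11 did not pass (limma, adjusted p 0.0894). It passed without AwTw/STD mouse 2 (adjusted p 0.0213), without any one of AwTw/TWD mouse 3, A+T+/TWD mouse 4 and AwT+/TWD mouse 2, and with quantile normalization (0.35, adjusted p 0.0466, limma). Choroid plexus markers were higher in A+ mice by a median of 0.80, with 13 of 13 positive and 0 called (limma, 8 at an unadjusted p under 0.05), and their summed level ran from 0.0429 to 2.76 times the median in A+ and from 0.033 to 3.84 times in Aw mice. Of the 13 oligodendrocyte markers 1 was called higher in A+ mice, with a median difference of 0.10. Over the 45 mice Trf followed the oligodendrocyte score (r 0.70 and rho 0.54, permutation, adjusted p 0.000257 and 0.00162, r 0.62 without the 2 most extreme mice, 0.79 in batch 0 and 0.65 in batch 1) more closely than the choroid plexus score (r 0.42, rho 0.40, permutation, adjusted p 0.0142 and 0.03, r 0.52 without the 2 most extreme mice, 0.61 in batch 0 and 0.30 in batch 1), and the difference between the correlations was not tested. Other scores passed with Trf too, dentate granule and CA3 neuron (r -0.54) and astrocyte (r -0.39, permutation, adjusted p 0.00164 and 0.0284). After removal of the length and GC trend these r were -0.38 and -0.61 (permutation, adjusted p 0.041 and 0.00045). The part of any of these cell types in the Trf difference was not tested.

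Cp (chr3:19957054-20009145) encodes ceruloplasmin, the copper oxidase that loads iron onto transferrin. It ran from 7.02 to 8.98 on STD (median 8.15) and from 6.12 to 8.90 on TWD (median 7.67). In the A+T+ groups the 4 STD mice had 8.14, 8.36, 8.98 and 8.16 and the 6 TWD mice ran from 6.12 to 8.36 with a median of 7.85, a difference of -0.77 ± 0.38 that did not pass (limma, adjusted p 0.998). The A+ difference of 0.04 ± 0.18 was made of 0.51 ± 0.19 in batch 0 and -0.25 ± 0.26 in batch 1 (adjusted p 0.425 and 0.607, limma). Cp followed the score of meninges and fibroblast markers over the 45 mice (r 0.70 and rho 0.76, permutation, adjusted p 0.000257 and 0.0003), with an r of 0.72 without the 2 most extreme mice, 0.74 in batch 0, 0.70 in batch 1 and 0.81 after removal of the length and GC trend. The summed level of these 12 markers varied from 0.228 to 2.66 times its median.

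Slc40a1 (chr1:45908068-45926523, minus strand) encodes ferroportin, the known exporter of cellular iron, and was the least abundant of the 10. Its STD values ran from 6.19 over a median of 6.72 to 7.34 and its TWD values from 5.41 over 6.39 to 7.47. It was 0.31 ± 0.12 lower on TWD (limma, adjusted p 0.038), with -0.20 ± 0.20 in batch 0 and -0.38 ± 0.15 in batch 1, and the call was lost without any one of 16 of the 45 mice, with an adjusted p of up to 0.0658 (limma). Of the 4 genotypes, A+Tw had the largest difference. The 5 A+Tw/STD mice had 7.11, 6.93, 6.63, 7.05 and 6.97, whereas A+Tw/TWD ran from 5.84 to 6.95 with a median of 6.19. Of the 6 A+Tw/TWD mice 5 lay below all 5 A+Tw/STD mice, and the difference of -0.77 ± 0.23 had an unadjusted p of 0.00206 but did not pass (limma, adjusted p 0.706). In T+ mice Slc40a1 ranged from 5.41 to 7.08 (median 6.55) and in Tw mice from 5.84 to 7.47 (median 6.65), a difference of -0.26 ± 0.11 (unadjusted p 0.0267, adjusted p 0.932, limma). Choroid plexus markers were higher in T+ mice by a median of 0.92, with 13 of 13 positive and 0 called (limma, 12 at an unadjusted p under 0.05). Over the 45 mice Slc40a1 and the choroid plexus score had an r of -0.08 and a rho of -0.10 (permutation, adjusted p 0.728 and 0.68). The oligodendrocyte (r -0.39), blood (r -0.37) and astrocyte scores (r 0.36) passed with Slc40a1. With the length and GC trend removed only the neuronal score passed (r 0.47). The part of these cell types in the Slc40a1 value was not tested.

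Slc30a3 (chr5:31086106-31108237, minus strand), which encodes the vesicular zinc transporter ZnT3, ran from 10.01 to 10.85 on STD (median 10.30) and from 10.16 to 11.15 on TWD (median 10.61). The difference was 0.30 ± 0.08 (limma, adjusted p 0.0159). The difference was 0.24 ± 0.10 in batch 0 and 0.37 ± 0.13 in batch 1 (adjusted p 0.82 and 0.0293, limma). The 4 A+T+/STD mice had 10.14, 10.22, 10.03 and 10.11, and the 6 A+T+/TWD mice ran from 10.16 to 11.14 with a median of 10.53. Of these 6 mice 4 were above all 4 STD mice, and the difference of 0.42 ± 0.18 did not pass (unadjusted p 0.023, adjusted p 0.998, limma). Slc30a3 differed by -0.07 ± 0.08 between A+ and Aw and by -0.17 ± 0.08 between T+ and Tw (adjusted p 0.682 and 0.968, limma). It was called lower in A+ mice with the shared component described below as a covariate (-0.17 ± 0.05, adjusted p 0.0219) and with the length and GC trend removed (-0.15 ± 0.05, adjusted p 0.0489, both limma). The diet call was lost under both settings, at 0.10 ± 0.06 and 0.11 ± 0.05 (adjusted p 0.652 and 0.112, limma). It followed the score of 12 neuronal markers over the 45 mice (r 0.69 and rho 0.68, permutation, adjusted p 0.000257 and 0.0003, r 0.69 without the 2 most extreme mice, 0.75 in batch 0 and 0.67 in batch 1). With the score of dentate granule and CA3 neuron markers, the cells of the mossy fibers and their targets, r was -0.01 and rho -0.04 (permutation, adjusted p 0.956 and 0.873), with 0.04 without the 2 most extreme mice, 0.18 in batch 0 and -0.15 in batch 1, but 0.57 (permutation, adjusted p 0.0015) after removal of the length and GC trend. With the microglial score r was 0.61 and rho 0.56 (permutation, adjusted p 0.000257 and 0.00124), with 0.56 without the 2 most extreme mice, 0.44 in batch 0, 0.72 in batch 1 and 0.41 after removal of the trend. Of the 12 neuronal markers 4 were called higher and 1 lower on TWD, and their part in the diet difference was not tested.

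**Figure D3:**
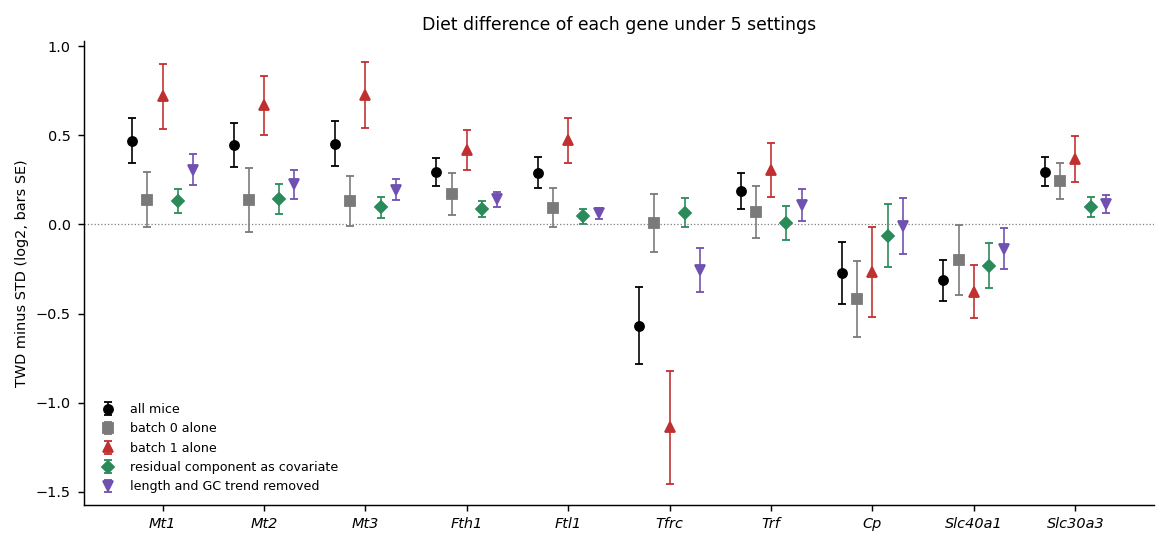
TWD minus STD on the log2 scale (vertical axis, bars SE) for each of the 10 genes with all mice, with batch 0 or batch 1 alone, with the shared component of the deviations as a covariate, and with the trend over transcript length and GC content removed. Batch 1 gives the largest differences for the metallothioneins, ferritins and Tfrc, while the batch 0 and covariate values are near 0 for Tfrc.

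Across the whole table the diet difference moved with transcript length. Its median over genes was 0.16 for transcripts up to 1000 nt, 0.12 above 1000 and up to 2000 nt, 0.01 above 2000 and up to 4000 nt and -0.13 for those over 4000 nt, with 39.5% called higher in the shortest class and 27.3% called lower in the longest. The 10 genes lie at both ends of this range. Mt2 (511 nt), Mt3 (536 nt), Ftl1 (968 nt), Mt1 (1085 nt) and Fth1 (1494 nt) have short transcripts and were higher on TWD, while Slc40a1 (3370 nt) and Tfrc (4890 nt) have long ones and were lower. Cp (4564 nt) is long too, and Slc30a3 (2089 nt) and Trf (2571 nt) lie between.

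**Figure D4:**
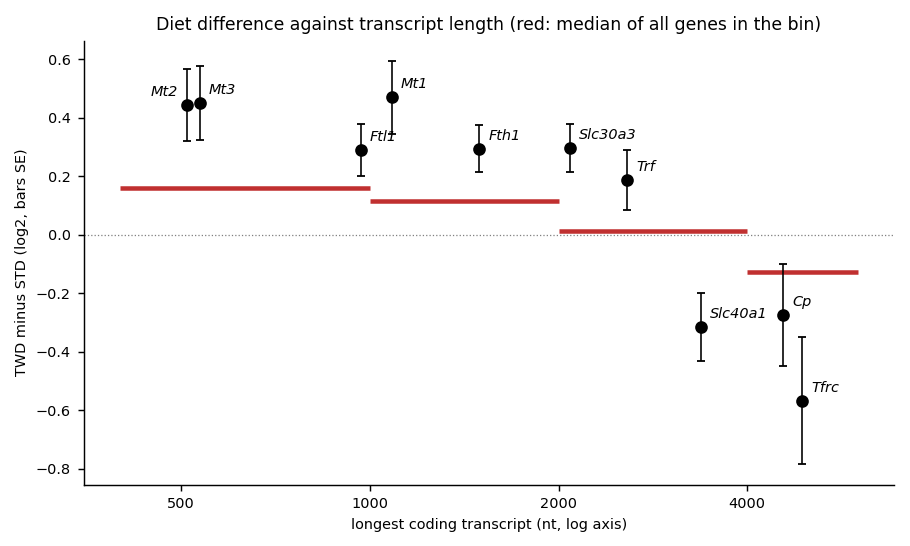
TWD minus STD on the log2 scale (vertical axis, bars SE) against the length of the longest coding transcript (nt, log axis) for the 10 genes, with red lines for the median of all genes in each of 4 length classes. The genes of up to 2571 nt lie above the median of their class, at 0.19 to 0.47, and the 3 genes of 3370 nt and over lie below it, at -0.57 to -0.27.

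When a smooth trend over transcript length and GC content was removed from each mouse, a step added after the data were seen, 3 of the 8 diet calls were left (11.1% of all genes called): Mt1 (0.31 ± 0.09, adjusted p 0.0263), Mt3 (0.20 ± 0.06, adjusted p 0.0341) and Fth1 (0.14 ± 0.04, adjusted p 0.0349, all limma). Mt2 was at 0.22 ± 0.08 (limma, adjusted p 0.0593), and Tfrc at -0.25 ± 0.12 (limma, adjusted p 0.158). The deviations of mice from their group and batch also shared 1 strong component, whose score averaged 0.72 ± 1.23 (SD) in the 12 TWD mice and -0.66 ± 0.99 in the 13 STD mice of batch 1, and 0.07 ± 0.48 and -0.11 ± 0.40 in the 12 and 8 mice of batch 0. With this score as a covariate 0 of the 10 genes were called for diet (limma, 0 at an unadjusted p under 0.05, 0% of all genes called), and Tfrc was at 0.07 ± 0.08. The score and the diet are not independent in these mice. What part RNA quality, batch or this component has in the diet differences was not tested.

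The A+ calls of Ftl1 and Mt2 were made under each setting that kept all mice or left out only the mouse high in choroid plexus markers. With single mice left out, the Mt2 call was lost without any one of 23 of the 45 mice, as given above. The diet calls of Mt1, Mt2, Mt3, Fth1, Ftl1 and Slc30a3 over all genotypes were kept whichever mouse was left out. With the length and GC trend removed Ftl1 differed by 0.23 ± 0.03 (limma, adjusted p 5.97e-07) and Mt2 by 0.35 ± 0.08 (limma, adjusted p 0.00488). With the component as a covariate they differed by 0.23 ± 0.04 (adjusted p 6.59e-05) and 0.30 ± 0.08 (adjusted p 0.0154, both limma). Within each batch alone neither passed, as given above, although the fit called 1.16% of all genes in batch 0 and 1.81% in batch 1.

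Within single genotypes, diet calls were found in AwTw mice. There Mt1 (0.77 ± 0.24), Mt3 (0.74 ± 0.25), Ftl1 (0.52 ± 0.17) and Fth1 (0.47 ± 0.16) were called higher on TWD, each with an adjusted p of 0.0498 (limma), and 9.35% of all genes were called. Tfrc was at -1.13 ± 0.42 (limma, adjusted p 0.0571) and Mt2 at 0.63 ± 0.24 (limma, adjusted p 0.0608). These 4 calls lie at the threshold. The count of called genes was 0 when any one of 32 mice was left out, AwTw/TWD mice 1, 2 and 3 among them, and 7 without AwTw/TWD mouse 4 or 5, AwTw/STD mouse 2 or A+T+/TWD mouse 1. In each transgenic genotype 0 of the 10 were called for diet with limma (at an unadjusted p under 0.05, 0 for AwT+ and 2 each for A+Tw and A+T+), as were 0% of all genes. In that order Mt1 differed by 0.34, 0.57 and 0.15, Mt2 by 0.33, 0.52 and 0.28, and Tfrc by -0.33, -0.50 and -0.23.

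Each transgenic group was also compared with AwTw mice on the same diet, and 0 of the 10 genes were called in any of these comparisons with limma. On STD the comparison of A+T+ with AwTw had 4 genes at an unadjusted p under 0.05 (1.32% of all genes called), Ftl1 (0.56 ± 0.19, adjusted p 0.165), Mt2 (0.64 ± 0.27), Mt1 (0.63 ± 0.27) and Trf (0.62 ± 0.22). For A+Tw on STD (0.925% of all genes called) there were 2, Ftl1 (0.43 ± 0.18) and Trf (0.44 ± 0.21). On TWD the same comparisons had 0 for A+T+ (0.73% of all genes called) and 1 for A+Tw (0.824%), Slc40a1 at -0.51 ± 0.22, and Ftl1 differed by 0.07 and 0.17. The 2 STD comparisons share the AwTw/STD mice, and the 2 TWD comparisons share the AwTw/TWD mice. AwT+ mice had 1 gene at an unadjusted p under 0.05 on STD, Slc40a1 at -0.45 ± 0.22, and 0 on TWD (0% of all genes called in both).

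Whether the A+ effect differed between the diets was tested as an interaction. The A+ effect on TWD minus that on STD was -0.26 ± 0.18 for Ftl1, -0.30 ± 0.21 for Trf, -0.38 ± 0.23 for Slc40a1 and -0.08 ± 0.26 for Mt2 (adjusted p 0.917 to 0.951, limma). Neither this interaction, nor that of T+ with diet, nor that of A+ with T+ called any of the 10 genes (limma, 0 at an unadjusted p under 0.05 in each) or any gene of the table (0%).

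Further genes of the same pathways were counted from lists of iron, zinc and copper handling. In A+ mice 4 of 32 iron genes passed, beside 3.77% of all genes. The phagosomal iron transporter gene Slc11a1 (1.16 ± 0.09, adjusted p 1.22e-12), the iron reductase gene Cybrd1 (0.47 ± 0.09, adjusted p 0.000797) and the heme oxygenase gene Hmox1 (0.26 ± 0.07, adjusted p 0.0208) were higher, and the ferroxidase gene Heph was lower (-0.34 ± 0.09, adjusted p 0.0125, all limma). The microglial markers higher in A+ mice, 12 of 14, moved with these genes as well, and their part was not tested. Of 22 zinc genes only the zinc importer gene Slc39a1 passed (0.19 ± 0.05, limma, adjusted p 0.0148), and of 13 copper genes 0 passed (limma, 1 at an unadjusted p under 0.05). The median differences were 0.03, -0.02 and 0.10, beside -0.02 over all genes. In T+ mice 0 genes of the 3 lists passed with limma (5, 1 and 1 at an unadjusted p under 0.05).

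On TWD 10 of the 32 iron genes were called higher and 5 lower, 0 of the 22 zinc genes higher and 6 lower, and 6 of the 13 copper genes higher and 1 lower, beside the 29.4% of all genes. Among the iron genes Ireb2, which encodes an iron regulatory protein, was lower (-0.62 ± 0.22), as was the metalloreductase gene Steap2 (-0.49 ± 0.17), while Iscu, a scaffold for iron-sulfur clusters, was higher (0.42 ± 0.12). The zinc exporter gene Slc30a4 (-0.60 ± 0.18) and the importer genes Slc39a12 (-0.50 ± 0.12) and Slc39a10 (-0.46 ± 0.15) were lower. Of the copper genes Cox17, a copper chaperone for cytochrome oxidase, was higher (0.43 ± 0.10) and the copper pump gene Atp7a lower (-0.43 ± 0.12). The median differences were -0.01, -0.13 and 0.15, beside -0.0014 over all genes. With the length and GC trend removed, 4 iron genes were called higher and 0 lower, 1 zinc gene higher and 2 lower, and 3 copper genes higher and 0 lower, and in batch 0 alone or with the component as a covariate 0 of each list were called with limma, as were 0% of all genes (at an unadjusted p under 0.05, 2 iron, 1 zinc and 2 copper genes in batch 0 and 4, 2 and 1 with the covariate).

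The 10 genes also varied together from mouse to mouse. With group and batch removed, 41 of the 45 pairs of genes were correlated over the 45 mice (permutation, adjusted p under 0.05 over the 45 pairs), 23 positively and 18 negatively. The share of passing pairs among other genes of the table was not computed, so this count does not mark the 10 genes out. The metallothioneins and ferritins formed a block with r from 0.79 to 0.94, and Tfrc was opposed to it. Mt1 and Mt2 had an r of 0.94 and a rho of 0.95 (permutation, adjusted p 1.73e-05 and 1.96e-05, from the smallest p the permutations can give, 1e-05), with 0.93 without the 2 most extreme mice, 0.91 in batch 0 and 0.97 in batch 1. Mt3 and Tfrc had an r of -0.79 and a rho of -0.73 (permutation, adjusted p 1.73e-05 and 1.96e-05), with -0.76 without the 2 most extreme mice, but -0.38 in batch 0 and -0.95 in batch 1. The same component runs through these pairs, since its score had an r of 0.91 with Mt3, 0.91 with Ftl1, 0.88 with Mt1 and -0.94 with Tfrc, given as a description. After removal of the length and GC trend 23 of the 45 pairs passed. Mt1 and Mt2 (r 0.82) and Mt1 and Mt3 (r 0.80, permutation, adjusted p 0.000112 for both) stayed close, Fth1 and Ftl1 fell to 0.48 (permutation, adjusted p 0.00444), and Slc30a3 no longer went with the metallothioneins (r from -0.04 to 0.20, permutation, adjusted p 0.302 to 0.831).

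**Figure D5:**
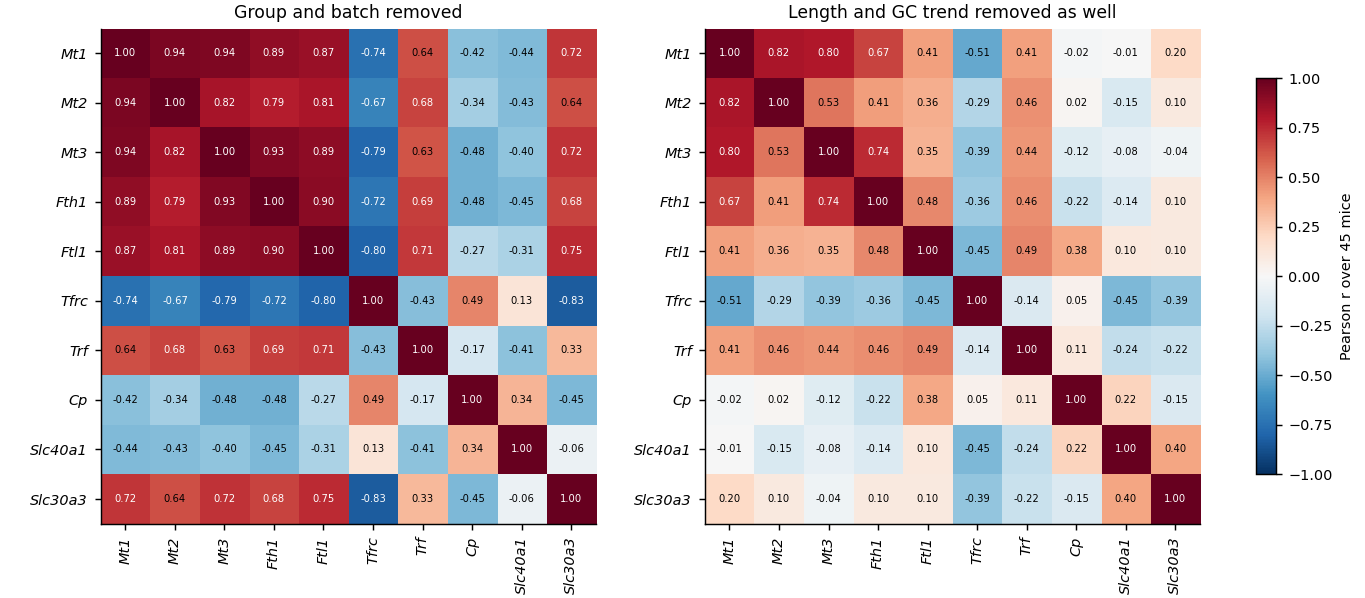
Pearson r over 45 mice for each pair of the 10 genes (color scale from -1 to 1, values in the cells), on the left with group and batch removed and on the right with the length and GC trend removed as well. The metallothionein and ferritin block at the upper left runs from 0.79 to 0.94 on the left and from 0.35 to 0.82 on the right.

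The genes whose deviations were most like those of each gene, by Pearson r over the same 45 mice, included Hagh for Mt1 (0.95) and were Mt1 and Gadd45g for Mt2 (0.94 and 0.90) and Fau and Cox8a for Mt3 (0.98 and 0.97). For Fth1 they were Rpl23a and Rps10 (0.95 for both), for Ftl1 Rps9 and Ndufa11 (0.97 for both), and for Tfrc Tm9sf3 and Mios (0.96 for both). Mt2 was thus the only one of the 10 with another of them as its nearest gene. Trf was most like Dbi and Rrbp1 (0.86 for both), Cp most like Ranbp3l and Bicc1 (0.88 and 0.82), Slc40a1 most like Bace1 and Pcdh7 (0.67 and 0.66), and Slc30a3 most like Cacnb3 and Numbl (0.93 and 0.92). Of 90 relations of the 10 genes with 9 cell type scores 35 passed (permutation, adjusted over the 90), and 23 did so after removal of the length and GC trend. For other genes of the table this share was not computed either. With the microglial score Mt1, Mt2 and Mt3 had an r of 0.57, 0.48 and 0.57 (permutation, adjusted p 0.00072, 0.00426 and 0.0006) and a rho of 0.57, 0.49 and 0.59 (permutation, adjusted p 0.00103, 0.00575 and 0.00045). These r were 0.53, 0.44 and 0.55 without the 2 most extreme mice, 0.27, 0.22 and 0.24 in batch 0, 0.77, 0.70 and 0.78 in batch 1, and 0.31, 0.12 and 0.25 after removal of the trend (permutation, adjusted p 0.0927, 0.536 and 0.198). The blood score passed for Mt1, Mt2 and Mt3 as well (r 0.51, 0.45 and 0.49, permutation, adjusted p 0.00307, 0.00909 and 0.00433). The oligodendrocyte score passed for Mt2 and Mt3 (r 0.39 and 0.35) and the neuronal score for Mt3 (r 0.35). After removal of the trend the blood score passed for none of them. Mt1 then passed with the endothelial score (r 0.43) and Mt3 with the oligodendrocyte score (r 0.39). No relation of Mt1, Mt2 or Mt3 with the astrocyte score passed (r -0.04, -0.08 and -0.08, permutation, adjusted p 0.728 to 0.863).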

How the data were processed

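Hippocampal RNA of 45 female mice was sequenced as single reads from stranded poly(A) libraries. Per the labels and the methods, the authors trimmed reads with Trimmomatic 0.38, removed unwanted reads with Bowtie2 2.2.3, quantified transcripts with kallisto 0.44.0, applied the variance-stabilizing transformation of DESeq2 1.22.2 and removed batch with limma 3.38.3. The deposited values are thus on a log2-like scale, and the batch means of every gene are equal in the table (within 1e-06). They hold no counts, so depth per mouse is not known here and no counting error is given. Genotype, diet and batch came from the sample labels.

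The tests were run in R 4.3.3 with limma 3.58.1 (empirical Bayes with a mean trend, batch as covariate, two-sided, Benjamini-Hochberg over 15897 genes, threshold 0.05). The genotype contrasts, those within 1 genotype or diet and the interactions came from 1 model of the 8 groups, and TWD against STD came from a model with genotype, diet and batch as additive terms. The authors tested counts, so these tests differ from theirs. Correlations used deviations from the group and batch fit and 100000 permutations (10000 without the 2 most extreme mice), two-sided, computed with Python 3.11.15 (scipy 1.17.1, pandas 2.3.3, numpy 2.4.6). The 2 most extreme mice are those whose deviation of the gene, or of the first gene of a pair, lay farthest from its median. Extreme cell type scores were not left out. A cell type score is the mean of its standardized markers. Plots were drawn with matplotlib 3.10.9. Symbols, transcript lengths and GC content came from GENCODE M21 (GRCm38), with a length for 98.7% of genes, and promoters from RefSeq (GRCm38.p6). The fit was checked on simulated data with 200 changed genes. The 10 genes and all lists were chosen with earlier results of these data known. Of the lists, up to 8 genes per comparison are named, by absolute difference among those called, and of other genes the 2 most correlated with each of the 10, of which 1 is not reported here.

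As alternatives the tests were run for each batch alone, without the batch covariate, with quantile normalization, genes above the 25th percentile of the mean, no mean trend, only the groups compared, a covariate for the leading component of the residuals, no mice with choroid plexus markers above 3 times the median, contrasts within genotype averaged, correlations with groups kept, and each mouse left out. Removal of a length and GC trend and the prefix of the mouse label as a covariate were added after the data were seen. The component score applies the loadings of the residuals' first principal component to all values and can differ between diets.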

Additional observations from a re-analysis of the deposited data

Results flagged for a closer look

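In 80 groups tested (10 genes in 8 groups), 5 held 1 mouse farther from its group than Dixon's test allows at the 95% level, close to the 5% that chance gives. AwTw/STD mouse 2, in batch 0, was high for Mt2 (10.81, next mouse 10.09) and for Trf (12.84, next mouse 12.16). A+Tw/STD mouse 2 was high for Trf (13.31, next mouse 12.45). A+T+/TWD mouse 1 was low for Tfrc (6.30, next mouse 8.15) and had the highest score of the residual component (2.42). A+T+/STD mouse 4 was low for Mt3 (12.02, next mouse 12.43). Without AwTw/STD mouse 2 the Trf difference between A+ and Aw passed (limma, adjusted p 0.0213). No interaction of genotype and diet passed for any of the 10 genes.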

How the results depend on the processing

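No paired analysis was made, because each mouse was a separate animal and the design pairs no mice between groups. For A+ against Aw, 2 of the 10 genes were called, 0 in batch 0 alone and 0 in batch 1 alone (limma, 2 and 4 at an unadjusted p under 0.05), and 1 to 3 with each mouse left out in turn. For TWD against STD, 8 were called, 0 in batch 0 alone, 0 with the component as a covariate, 3 with the length and GC trend removed, and 6 to 8 with each mouse left out. For TWD against STD in AwTw, 4 were called, 0 in batch 0 alone, with quantile normalization, no mean trend, only the groups compared, the component or the label prefix as a covariate, without the mouse high in choroid plexus markers and with the length and GC trend removed, and 0 to 7 with each mouse left out. For A+Tw against AwTw on STD 1 gene was called with the length and GC trend removed, and for A+T+ against AwTw on STD 1 with quantile normalization, 1 with the component and 2 with the trend removed. Correlated pairs fell from 41 to 20 in batch 0 and to 23 with the trend removed, and relations with cell types from 35 to 3 in batch 0, 19 in batch 1 and 23 with the trend removed.

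Some differences changed sign. Tfrc turned to 0.29 in batch 0, 0.18 with the component and 0.0424 with the trend removed for A+ (-0.20 to 0.00699 with each mouse left out), to 0.00674 in batch 0 and 0.0656 with the component for TWD, to 0.12 in batch 0 for T+ (-0.12 to 0.0819 with each mouse left out), and to 0.0869 in batch 0 and 0.0378 with the component for TWD in AwTw. Cp turned to -0.25 in batch 1 for A+ (-0.0148 to 0.13 with each mouse left out), to -0.0560 in batch 1 for T+, and for TWD in AwTw to 0.57 in batch 0, 0.29 with the component and 0.32 with the trend removed. For T+, Mt1 turned to 0.0181 in batch 0, 0.0336 with quantile normalization, 0.0120 without the mouse high in choroid plexus markers and 0.00795 with the trend removed (-0.0492 to 0.0439 with each mouse left out), Mt2 to -0.0459 in batch 1 (-0.0185 to 0.0710), and Ftl1 to 0.0036 in batch 0 and 0.0200 with quantile normalization (-0.0588 to 0.000706). For TWD in AwTw in batch 0, Mt1 turned to -0.0199, Mt2 to -0.16, Mt3 to -0.12, Fth1 to -0.0629 and Trf to -0.0968, and Slc40a1 turned to 0.12 with the trend removed. The causes were not tested. Depth cannot be assessed from the table. In batch 0 alone the comparison of diets rests on 8 and 12 mice.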
